A study of Caenorhabditis elegans with 8 samples.

Results

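cup-5 (WBGene00000846, sequence name R13A5.1) was followed across 8 RNA-seq libraries of Caenorhabditis elegans. It was chosen by name, as a lysosomal channel gene described as a target of the microRNA miR-83, and is 1 of the 18286 genes that both count sheets of the study hold. The libraries were made from whole adult worms and form 4 groups of 2: the mir-83 mutant strain MT15501 at adult day 12, the wild-type strain N2 at adult day 12, the mutant at adult day 4 and N2 at adult day 4. Worms of all groups grew at 20 °C on NGM plates containing FuDR, a drug that blocks progeny production, and total RNA was extracted with Trizol. The labels do not say that the 2 replicates of a group were grown as separate cultures; p-values then reflect the spread of these libraries, which may be technical. The mir-83 gene was not analysed here, so the mutant label was not checked on its own target.

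CUP-5 is the worm member of the mucolipin branch of the TRP channels, cation channels of the late endosome and lysosome membrane. Worms that lack it accumulate enlarged hybrid compartments of late endosomes and lysosomes, first described in coelomocytes, the scavenger cells of the body cavity, and mutations in the human counterpart mucolipin-1 (TRPML1) cause mucolipidosis type IV. miR-83 belongs to the miR-29 family; microRNAs pair with sites in messenger RNAs, mostly in the 3′ untranslated region, and can lower the amount of the transcript, its translation or both. RNA-seq of whole worms reads the amount of transcript alone, and fewer cells of a type and less RNA per cell cannot be told apart in it.

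The gene lies on chromosome III of WBcel235, the assembly that the build name ce11 refers to, at bases 7584181 to 7591581 of the plus strand. Its span of 7401 bases holds 6 annotated isoforms of 10 or 11 exons, with open reading frames of 607 to 668 codons. The isoforms share 2146 of the 2700 exonic bases (79.5%) and differ mainly at both ends. The annotated 3′ untranslated region, where microRNA sites usually lie, is 247 bases long in isoform d.1, 253 in e.1, 325 in c.1, 417 in a.1, 421 in a.2 and 650 in b.1. On the minus strand, R13A5.11 (III, 7591570 to 7593335) overlaps the 3′ end of cup-5 by 12 exonic bases. R13A5.15 (III, 7586769 to 7588314) lies almost wholly within an intron, with 1 exonic base of overlap.

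**Figure D1:**
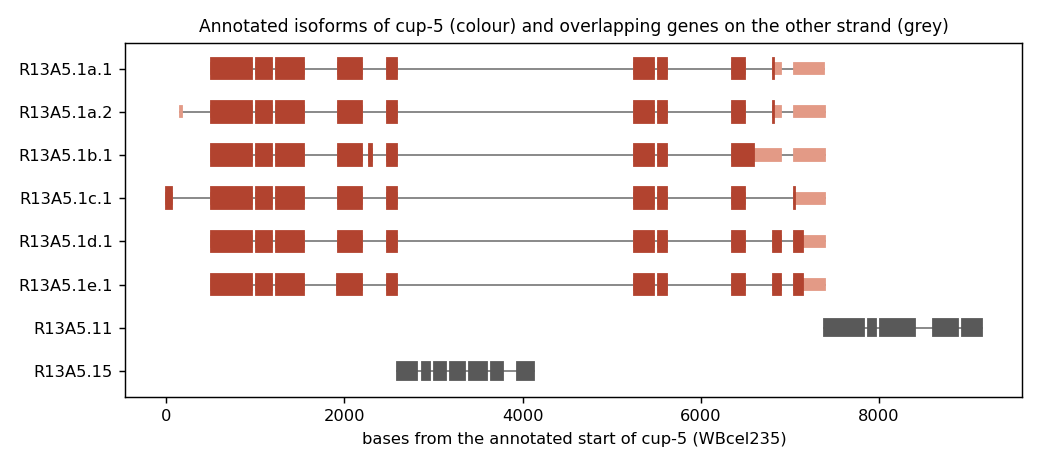
Annotated isoforms of cup-5 (colour; tall boxes are coding, low boxes untranslated) and the overlapping minus-strand genes (grey), by distance in bases from the annotated start of cup-5. The 6 isoforms share their central exons and differ at the ends, and R13A5.11 meets cup-5 only at its 3′ end.

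Library depth ran from 20.3 to 41.2 M counted reads. The groups differed in how reads were spread over genes: the 10 most abundant genes took a share of 12.1% and 14.2% of reads in the libraries of mir-83 day 4, against 3.67% to 6.20% in the other 6. The trimmed-mean (TMM) normalisation factors were 0.644 and 0.596 in the mir-83 day 4 libraries and 1.08 to 1.23 in the others. The level of cup-5 in each library is therefore given both on the TMM scale and on plain library sizes, in CPM (reads scaled to a common library size). Over log2 CPM of all genes tested, mir-83 day 12 replicate 1 was closest to N2 day 12 replicate 1 (r = 0.975) and mir-83 day 12 replicate 2 to N2 day 4 replicate 2 (r = 0.952), so neither was closest to the other library of its own group (r = 0.894). N2 day 4 replicate 2 was likewise closer to mir-83 day 12 replicate 2 than to N2 day 4 replicate 1 (r = 0.948). Of the marker lists, the 8 body wall muscle genes summed to 6141 and 5654 CPM (TMM) in mir-83 day 4 worms, against 1240 and 1611 CPM in N2 day 4 worms, and to 188 to 480 CPM in the 4 day 12 libraries. The 6 embryo genes summed to 1.38 and 2.11 CPM in mir-83 day 4 worms, against 8.09 to 35.7 CPM in the other 6 libraries.

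cup-5 was a well-measured, moderately abundant transcript in every library. It received 3468 and 4601 reads in the mir-83 day 12 libraries and 3702 and 3211 in the N2 day 12 libraries. At day 4 it received 1142 and 1991 reads in mir-83 and 1292 and 2628 in N2. The smallest of these counts, 1142, has an exact 95% Poisson interval of 1077 to 1210, which covers counting error only. Ranked by CPM per kilobase of exons among the 15842 genes tested, cup-5 stood at percentiles 74.5 and 76.6 in mir-83 day 12 and 74.2 and 70.9 in N2 day 12. At day 4 it stood at percentiles 74.4 and 76.4 in mir-83 and 68.4 and 73.7 in N2. This rank uses no scaling between libraries, but it moves with the other genes, and the sheets of the replicates use different annotations. Both mir-83 values lie above both N2 values at each age, by less than 1 percentile at the nearest pair.

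On the TMM scale the order of the groups was mir-83 day 12, mir-83 day 4, N2 day 12 and N2 day 4. cup-5 had 93.5 and 92.9 CPM in mir-83 day 12 worms (93.2 ± 0.398, SD, n = 2) and 95.001 and 71.4 CPM in N2 day 12 worms (83.2 ± 16.7). It had 82.7 and 93.2 CPM in mir-83 day 4 worms (88.0 ± 7.42) and 56.2 and 76.5 CPM in N2 day 4 worms (66.4 ± 14.4). Each group's range overlapped that of its neighbour in the order. The only pairs of groups without overlap were N2 day 4 against either mir-83 group. On plain library sizes the order was different: 112 and 113 CPM in mir-83 day 12 worms, 110 and 87.9 in N2 day 12 worms, 53.3 and 55.6 in mir-83 day 4 worms and 65.2 and 82.5 in N2 day 4 worms. There no group overlapped another, and mir-83 day 4 moved to the lowest place.

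**Figure D2:**
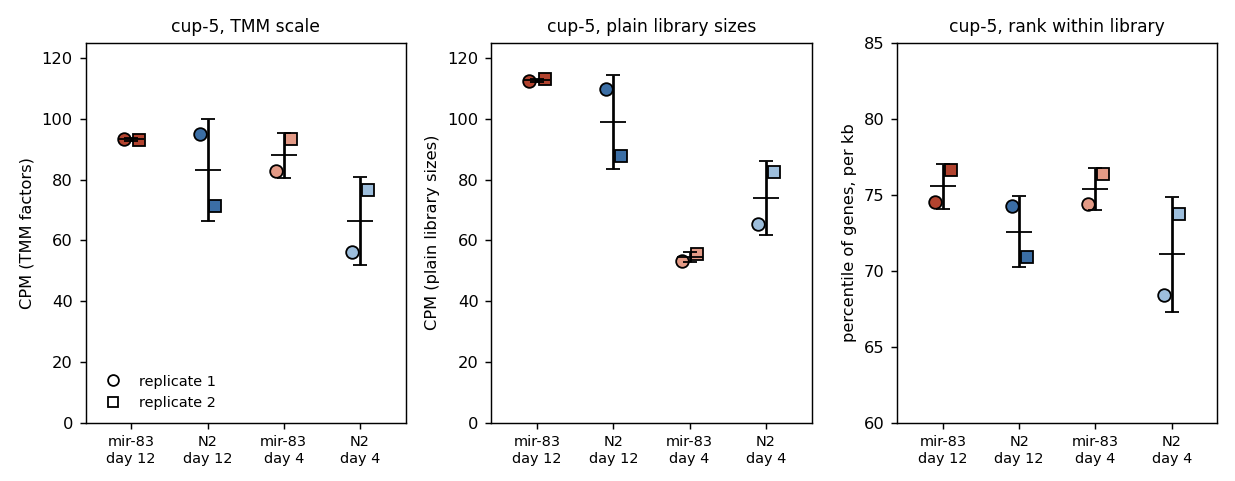
cup-5 in each library as CPM with TMM factors (left), as CPM on plain library sizes (middle) and as a percentile of genes ranked per kilobase (right); circles are replicate 1, squares replicate 2, and bars are the mean ± SD of the group. The mir-83 day 4 libraries sit at 82.7 and 93.2 CPM on the TMM scale and at 53.3 and 55.6 CPM on plain library sizes, while their percentiles are above those of N2 day 4.

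The central question of the design for a miR-83 target is whether its transcript is higher in the mutant. At day 4 the mutant value was 1.33-fold that of N2 on the TMM scale (log2 fold change 0.41 ± 0.27, SE, 95% interval -0.21 to 1.03), and cup-5 did not pass the test (edgeR quasi-likelihood test, adjusted p = 0.370), where 7.05% of the 15842 genes did. Within replicate 1 the log2 ratio was 0.56 and within replicate 2 it was 0.28, so the mutant was higher in both. The interval includes no difference and also includes the mutant at 2.04-fold. On plain library sizes the sign turned: the fold change was -0.44 (adjusted p = 0.174), with -0.29 and -0.57 within the replicates. That scaling moved the median of all genes at day 4 to -0.99, against -0.14 with TMM. Relative to the median gene cup-5 was higher in the mutant by 0.55 on the log2 scale under either scaling. A change of scaling moves all genes by nearly the same amount, so both values had to be alike and are no independent support. The TMM fold change of cup-5 was at percentile 69.3 of all genes tested. Fitted on the 4 day 4 libraries alone, the fold change was 0.40 ± 0.16 with a 95% interval of 0.02 to 0.79 that leaves out 0. Its edgeR adjusted p was 0.0948, the lowest of 18 alternatives, the highest being 0.863. That fit called 4893 of the 14203 genes it tested, so cup-5 missed a threshold that many genes passed. With 4 libraries almost no residual degrees of freedom are left. Leaving out any 1 library gave fold changes of 0.16 to 0.69 on the TMM scale, and leaving out both mir-83 day 12 libraries gave 0.41 ± 0.26 (adjusted p = 0.306).

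At day 12 the difference between strains was smaller than its error. The fold change was 0.16 ± 0.27 on the log2 scale (95% interval -0.46 to 0.78, or 0.727-fold to 1.72-fold; edgeR adjusted p = 1.00). No gene of the 15842 passed (0%), 306 reached an unadjusted p below 0.05, and DESeq2 called 4 genes. cup-5 was level between the strains within replicate 1 (log2 ratio -0.02) and higher in the mutant within replicate 2 (0.38). Without N2 day 12 replicate 2, the lower of the N2 libraries, the fold change was -0.13.

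With TMM, cup-5 passed the ageing test in neither strain. In N2, day 12 exceeded day 4 by 0.33 ± 0.27 on the log2 scale (95% interval -0.29 to 0.96, edgeR adjusted p = 0.434), where 4.51% of genes passed. The replicates differed here: the log2 ratio was 0.76 within replicate 1 and -0.10 within replicate 2. In the mutant the fold change was 0.08 ± 0.27 (95% interval -0.54 to 0.70, adjusted p = 0.830), where 27.9% of genes passed, with 0.18 and -0.01 within the replicates. With plain library sizes the mutant fold change was 1.05 (adjusted p = 0.00924), past the threshold, while the median of all genes was at 1.01 on that scale. Relative to the median gene it was 0.04 under both scalings, alike because scaling moves all genes by nearly the same amount. Without mir-83 day 4 replicate 1 the TMM fold change was -0.01. The replicate 1 labels give mir-83 and N2 worms of an age the same sequencing run code and the ages different ones, so age and run cannot be told apart there, and the replicate 2 labels give no such code.

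The strain difference was not shown to change with age. The interaction, the mutant effect at day 12 minus that at day 4, was -0.25 ± 0.38 (95% interval -1.13 to 0.63, edgeR adjusted p = 0.800). No gene passed this test (0%), although 2911 reached an unadjusted p below 0.05 and DESeq2 called 1325; edgeR called 551 and 535 without mir-83 day 12 replicate 1 and replicate 2, and 36 without N2 day 4 replicate 1. The sign for cup-5 was opposite on plain library sizes (0.63), where 1636 genes were called higher and 108 lower, and also without N2 day 12 replicate 1 (0.08) and without N2 day 4 replicate 1 (0.01). Averaged over both ages, cup-5 was at 0.28 ± 0.19 in the mutant against N2 (95% interval -0.15 to 0.72, edgeR adjusted p = 0.511); 0% of genes passed, 2356 reached an unadjusted p below 0.05, and DESeq2 called 651, while edgeR called 140 without mir-83 day 12 replicate 1 and 18 without replicate 2. This mean was -0.13 on plain library sizes. Averaged over both strains, day 12 against day 4 gave 0.21 ± 0.19 (95% interval -0.23 to 0.65, adjusted p = 0.410), where 37.1% of genes passed (19.4% higher, 17.8% lower). That average passed on plain library sizes (0.74, adjusted p = 0.00912), where the median of all genes was 0.54 and 5819 genes were called higher and 1449 lower, against 3073 and 2812 with TMM.

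**Figure D3:**
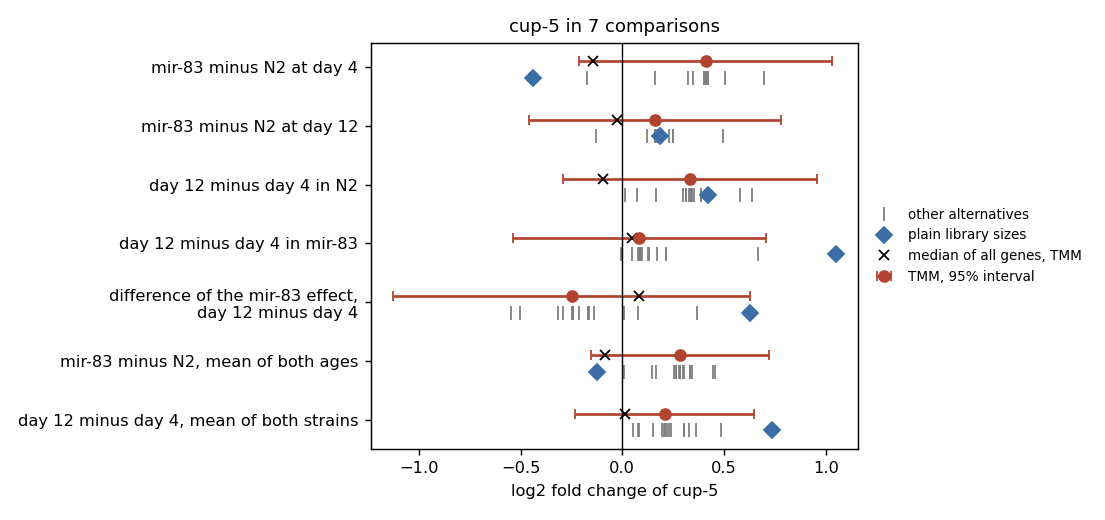
Log2 fold change of cup-5 in 7 comparisons: circles with bars are the edgeR estimates with TMM and 95% intervals, crosses the median of all genes, diamonds the same contrast on plain library sizes, and ticks the other processing alternatives. All 7 intervals include 0, and the diamonds lie on the other side of 0 from the circles at day 4 (-0.44 against 0.41), for the interaction and for the mean of both ages.

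The deposited sheets count reads per isoform, which allows the makeup of the cup-5 transcripts to be compared within a sheet. The replicate 1 sheet has 9 isoform rows, which would each hold 11.1% if reads fell evenly. The shares ran from 7.36% to 14.8%, with e.2 and e.1 the highest in sum (13.7% to 14.8% and 12.6% to 14.5%) and c the lowest (7.36% to 9.40%). No Wilson 95% interval of an isoform stood apart between mir-83 and N2 at day 12 or at day 4 in this sheet. The replicate 2 sheet has 5 RefSeq rows with an even share of 20%, and the leading row held 30.7% to 32.1% in all 4 libraries. There 1 of the 5 rows stood apart between the strains at day 4: the least abundant one, NM_066263.4, with 10.6% in mir-83 day 4 (9.37% to 12.1%) and 13.5% in N2 day 4 (12.2% to 14.8%). In the ageing of the mutant, NM_001027551.2 also stood apart, with 22.7% in mir-83 day 12 and 26.3% in mir-83 day 4. These intervals cover counting error only, 1 library stands on each side, and 56 such pairs of shares were set side by side. The assignment of reads from shared exons to isoforms is an unknown step of the deposited counts.

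**Figure D4:**
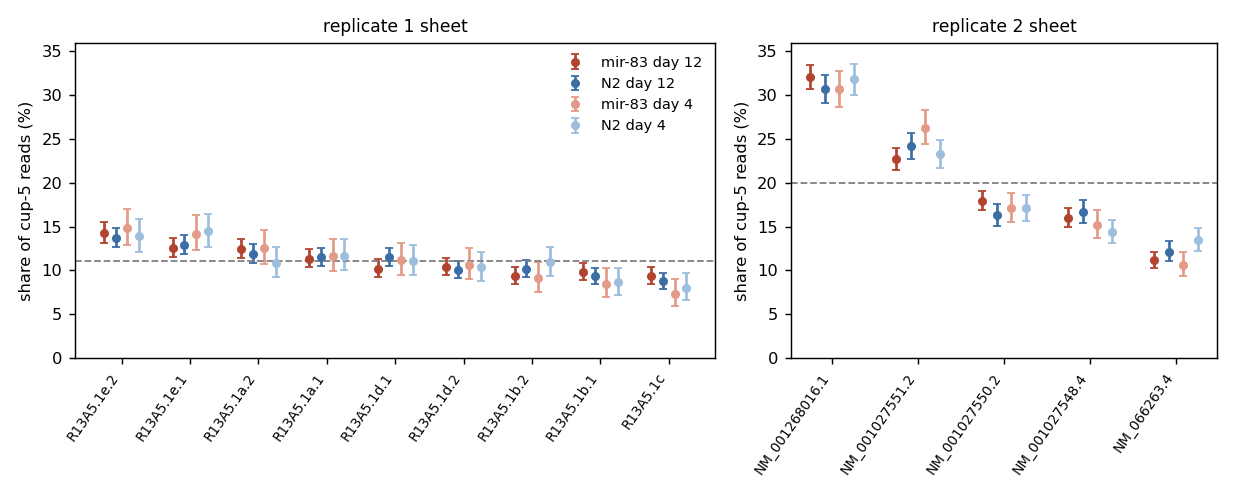
Share of cup-5 reads on each isoform row, by group, in the replicate 1 sheet (left) and the replicate 2 sheet (right); bars are Wilson 95% intervals and the dashed line is the even share. Shares of the 4 groups lie close together on every row, the widest gap between strains being 3.07 percentage points.

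No source used here says whether counting took account of strand, so reads of cup-5 and of the genes that overlap it cannot be told apart where they share bases. R13A5.11 received 442 and 95 reads in mir-83 day 12 and 251 and 490 in N2 day 12. At day 4 it received 1 and 2 reads in mir-83, against 64 and 58 in N2. The day 4 groups do not overlap. R13A5.11 fell at day 4 in the mutant (edgeR adjusted p = 0.0447) and rose with age in the mutant (edgeR adjusted p = 0.00871). Its summed reads, scaled by library sizes with TMM factors, gave a ratio of 0.0401 to N2 at day 4 (95% counting interval 0.00816 to 0.12). On the same scale, day 12 against day 4 in the mutant gave a ratio of 72.6 (24.7 to 353). The day 4 call was also lost without the replicate block (adjusted p = 0.0654) and with a block for replicate within age (0.0631). It was lost without any 1 of the 4 day 4 libraries (adjusted p = 0.123 to 0.289), and the ageing call without either mir-83 day 4 library (0.0561 and 0.0918). Its reads came to 0.0876% to 15.3% of those of cup-5, and those of R13A5.15 came to 0.864% to 8.90%. R13A5.15 received 52 and 368 reads in mir-83 day 12 worms, 32 and 196 in N2 day 12 worms, 36 and 34 in mir-83 day 4 worms and 88 and 234 in N2 day 4 worms, and passed neither strain test nor either ageing test. The nearest upstream gene that does not overlap, R13A5.10, lies 1195 bases away and received 25 to 94 reads in each library.

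Set beside a list of 16 other TRP channel genes, cup-5 had the highest transcript level per length. It averaged 30.6 CPM (TMM) per kilobase over the 8 libraries, with group means of 34.5 for mir-83 day 12, 30.8 for N2 day 12, 32.6 for mir-83 day 4 and 24.6 for N2 day 4. The next was spe-41, a channel of sperm, with 8.30 CPM per kilobase, ranging from 4.86 to 16.8. gon-2 and gtl-1, TRPM channels of the gonad and the intestine, averaged 4.13 and 3.21, and trpa-2 averaged 2.14. cup-5 exceeded every other listed gene within each of the 8 libraries, an order that scaling between libraries does not change. The other TRP genes averaged from 1.08 CPM per kilobase for trpa-1, a cold-sensing channel linked to lifespan in worms, down to 0.03 for ocr-4. Of the 16 other genes listed 13 passed the filter on low counts. None passed edgeR's test between strains, where 7.05% of all genes passed at day 4 and 0% at day 12, or with age, where 4.51% passed in N2 and 27.9% in the mutant. At day 4, 2 of the 13 had an unadjusted p below 0.05, where 4179 of all 15842 genes did. DESeq2 called 1 of the 13 higher, and 1506 of all genes. At day 12 both numbers were 0 for the 13. For ageing, 2 had an unadjusted p under 0.05 in each strain, where 4459 of all genes in N2 and 6957 in the mutant did. DESeq2 called 1 higher in N2 and 0 in the mutant, where it called 1763 and 3488 of all genes higher. With plain library sizes 3 were called higher with age in the mutant, as were 5913 of all genes.

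**Figure D5:**
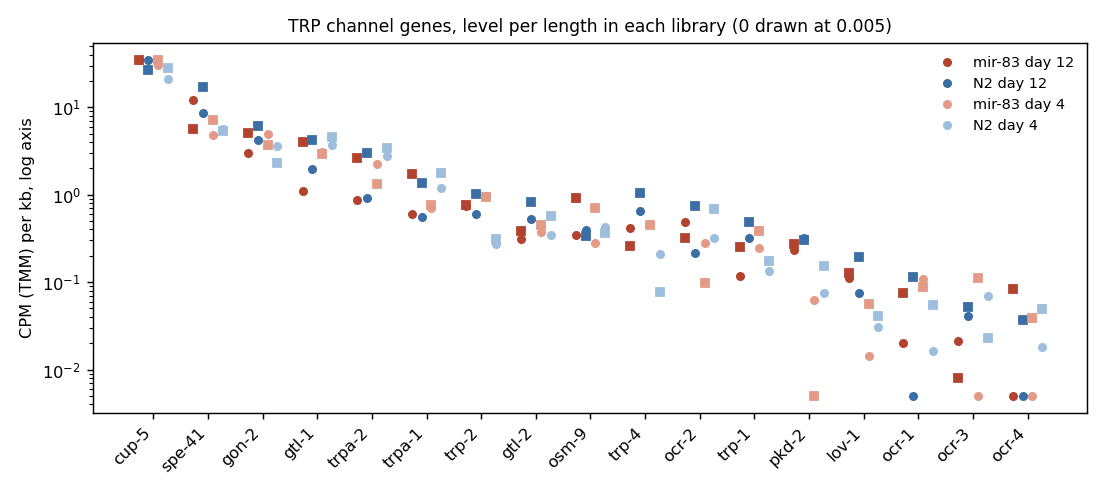
CPM (TMM) per kilobase of exons of cup-5 and 16 other TRP channel genes in each library on a log axis; circles are replicate 1 and squares replicate 2, and values of 0 are drawn at 0.005. cup-5 lies between 20.8 and 35.2 and above every other gene shown in every library.

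Other genes of the compartment that CUP-5 serves were read from lists of late endosome and lysosome biology. At day 4, unlike cup-5, some of them passed the test between the strains. Of 36 genes of endosome to lysosome traffic and the lysosome membrane, 3 rose and 2 fell in the mutant, against 4.42% of all genes higher and 2.63% lower; the list median was 0.22 and that of all genes -0.14. rab-7, the GTPase of late endosomes, rose by 1.36 ± 0.25 on the log2 scale, the lysosomal lysine and arginine transporter laat-1 by 1.53 ± 0.30 and cup-14 by 1.41 ± 0.32. Lower were vps-34, a phosphatidylinositol kinase of endosomes (-1.11 ± 0.27), and glo-3, needed for gut granules (-2.38 ± 0.54). Of 33 genes listed as lysosomal hydrolases, 6 rose and 0 fell (median 0.57). Among those that rose were the aspartyl proteases asp-1 (2.14 ± 0.37) and asp-3 (2.86 ± 0.52) and the cathepsin B homologue cpr-6 (2.06 ± 0.40). Of 21 genes of the V-ATPase, the proton pump that acidifies lysosomes, 5 rose and 0 fell (median 0.80), with vha-12 at 2.21 ± 0.28 and vha-2 at 1.55 ± 0.24. Of 27 genes of autophagosome formation measured at day 4, 1 rose and 2 fell (median -0.18). hlh-30, the worm TFEB, a transcription factor of lysosome and autophagy genes, rose by 2.16 ± 0.50, and epg-2, an autophagy adaptor of embryos, fell (-3.49 ± 0.53). Of 13 genes of intracellular calcium release and uptake 2 rose (median 0.41): the SERCA pump sca-1 (1.96 ± 0.37) and the calmodulin cmd-1 (1.30 ± 0.24). The adjusted p-values of the day 4 genes named here ran from 0.021 to 0.048 with edgeR. Scaled by plain library sizes, the traffic list had 0 higher and 14 lower, the hydrolases had 2 higher and 2 lower, the V-ATPase 3 and 4, autophagosome formation 0 and 14 and calcium 0 and 2. Over all genes the split was then 210 higher and 3820 lower, against 701 and 416 with TMM. These calls also rest on each day 4 library: over all genes 0 passed without either mir-83 day 4 library, 56 without N2 day 4 replicate 1 and 11 without N2 day 4 replicate 2, while 2504 and 2436 passed without mir-83 day 12 replicate 1 and replicate 2. Some markers of other tissues moved with them: 4 of 8 body wall muscle and 4 of 6 germline genes rose in mir-83 at day 4. So did 2 of 6 intestine and 2 of 7 neuron genes, and 4 of 6 embryo genes fell. Of 4 hypodermis, 6 sperm and 3 coelomocyte markers 0 passed. The hypodermis genes still summed to 1309 and 1445 CPM (TMM) in mir-83 day 4 worms, against 117 and 322 CPM in N2 day 4 worms. Of these 4 genes, 2 had an unadjusted p below 0.05 and DESeq2 called 1 higher, while their median log2 fold change was -0.55. The part of these tissues in the lysosome gene values was not tested.

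At day 12 no gene of these 6 lists passed between the strains, as none of all 15842 genes did (0%; DESeq2 called 4, none of them in the lists). At an unadjusted p under 0.05 there were 3 hydrolases and no member of the other 5 lists, where 306 of all 15842 genes reached it.

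With age, some genes of lysosomal degradation fell in both strains. In N2, 5 of 33 hydrolases fell between day 4 and day 12 and 0 rose, against 2.4% of all genes lower and 2.11% higher, with asp-2 at -3.28 ± 0.43 and asp-1 at -3.05 ± 0.38. Of the V-ATPase genes 2 of 21 fell, vha-6 (-1.98 ± 0.38) and vha-3 (-1.29 ± 0.27), and 1 of 36 traffic genes rose, the endocytic co-chaperone rme-8 (1.30 ± 0.25). No autophagosome or calcium gene passed edgeR's test in N2. At an unadjusted p below 0.05 there were 6 of 27 and 3 of 13, where 4459 of all 15842 genes reached it. DESeq2 called 3 and 1 of them, and 3256 of all genes. Over all genes 334 rose and 380 fell with TMM, against 657 and 290 on plain library sizes. The total of 714 became 0 without either N2 day 12 library, 3 and 471 without N2 day 4 replicate 1 and replicate 2, 130 and 128 without those of mir-83 day 4, and 2472 and 2414 without those of mir-83 day 12. Of the markers of other tissues, 3 of 8 body wall muscle and 1 of 6 intestine genes fell with age in N2 and 1 of 6 germline genes rose. No gene of the other marker lists passed. The part of these tissues in these values was not tested.

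In the mutant, 15 of the 33 genes listed as hydrolases fell with age and 1, tpp-2 (0.89 ± 0.23), rose. Of the V-ATPase genes 16 of 21 fell. Over all genes 15.2% were lower and 12.8% higher. The fold change was -6.12 ± 0.44 for asp-1 and -4.09 ± 0.41 for vha-6. The traffic list split, with 9 higher and 7 lower: vps-11, of the HOPS tethering complex, rose by 1.75 ± 0.28 and vps-34 by 1.64 ± 0.27, while rab-7 (-1.501 ± 0.247) and the lysosome membrane protein lmp-1 (-1.58 ± 0.35) fell. Autophagosome formation split likewise, 8 higher and 5 lower, with the Beclin homologue bec-1 at 1.53 ± 0.26 and hlh-30 at -3.24 ± 0.53. Of the calcium genes 4 of 13 fell, among them sca-1 (-1.83 ± 0.37) and the store-operated channel orai-1 (-1.32 ± 0.26). Scaled by plain library sizes, the traffic list had 17 higher and 0 lower, the hydrolases 2 and 11, the V-ATPase 3 and 6, autophagosome formation 18 and 2 and calcium 3 and 1. The split over all genes was then 5913 higher and 976 lower, against 2022 and 2402 with TMM. Over all genes 579 and 870 passed without mir-83 day 4 replicate 1 and replicate 2, and 2610 without mir-83 day 12 replicate 1. All 8 body wall muscle markers, 5 of 6 intestine, 4 of 6 germline, 3 of 7 neuron and 1 of 4 hypodermis markers fell with age in the mutant too, and 4 of 6 embryo markers rose. Of 6 sperm and 3 coelomocyte markers 0 passed. The part of these tissues was not tested. The coelomocyte markers unc-122, cup-4 and lgc-26, of the cell type in which CUP-5 was first studied, summed to 7.28 and 18.1 CPM in mir-83 day 12 worms, 8.62 and 14.8 in N2 day 12 worms, 19.9 and 22.9 in mir-83 day 4 worms and 21.3 and 32.6 in N2 day 4 worms. On plain library sizes the day 4 sums were 12.8 and 13.6 in mir-83 worms and 24.7 and 35.1 in N2 worms, without overlap. None of the 3 passed edgeR's test between strains at day 4, and no unadjusted p was under 0.05.

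The genes most like cup-5 were sought by Pearson's r of log2 CPM over the 8 libraries, after the mean of each replicate number was taken off, among 12051 genes with at least 50 reads on average. The median r was -0.03, 38 genes had r over 0.9 and 6 over 0.95. The 5 named by the rule were lag-1, the transcription factor of Notch signalling (0.965), hel-1, an RNA helicase (0.952), rilp-1, a relative of a RAB7-interacting lysosomal protein (0.952), saps-1, a phosphatase subunit (0.951), and zipt-9, a zinc transporter of the ZIP family (0.9504). These were 0.940 to 0.987 with plain library sizes. A change of scaling moves all genes by nearly the same amount in a library, so these values are no independent check. rilp-1 had 76.2 and 58.3 CPM (TMM) in mir-83 day 12 worms, 70.6 and 49.9 in N2 day 12 worms, 62.5 and 70.2 in mir-83 day 4 worms and 44.1 and 50.3 in N2 day 4. On this scale rilp-1 was lowest in N2 day 4 among the replicate 1 libraries and in N2 day 12 among those of replicate 2, as cup-5 was. Since rilp-1 was picked by its r with cup-5 in these libraries, that shared order restates the choice. The points share libraries, depth and 4 group means, and so r is a description. The lists of lysosome biology did not follow cup-5 as a whole: the median r was 0.26 for traffic and lysosome membrane genes, 0.01 for the V-ATPase, -0.03 for autophagosome formation, -0.10 for the TRP genes, -0.11 for calcium genes and -0.32 for the hydrolases.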

How the data were processed

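RNA-seq read counts per transcript were deposited by the authors in 1 sheet for each replicate number, covering the 8 libraries. The submitters' processing notes name Bowtie2, edgeR and ce11, with no version. Trimming, strand and the assignment of reads to isoforms are not given in the sources used here. Of the sheets, that of replicate 1 had 30443 lines under WormBase names and that of replicate 2 had 29023 under RefSeq accessions. Of these, 217 (0.093% of reads) and 276 (0.242%) matched no gene and stayed out, and 31 gave different genes by accession and by name. Names and positions came from Ensembl release 115 and RefSeq annotations of WBcel235. Counts were summed per gene, so a read counted on several isoforms would enter more than once.

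Tests used edgeR 4.0.16 in R 4.3.3 (glmQLFit, glmQLFTest) on all 8 libraries, with TMM, filterByExpr (15842 genes left), a mean for each group and the replicate number as a block (3 residual degrees of freedom, common biological coefficient of variation 0.429). Two-sided p-values were adjusted by Benjamini-Hochberg over all genes tested in each of 7 comparisons and called under 0.05. A positive log2 fold change means a higher level in the group named first. The replicate number was used as a block because libraries of 1 number share a sheet. Deviations from group means correlated over genes in all 6 pairs of groups (r = 0.118 to 0.415). The sheets use different annotations, which alone can give such a correlation, so it cannot show that libraries were paired. The test script was checked on simulated counts with no replicate effect at day 4, so that check does not show how the tests behave on these libraries. DESeq2 1.42.0 was an alternative.

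Genes named in the text are cup-5, its overlapping and nearest genes, the 5 genes most like it, and up to 3 members of each list with the smallest p in each direction, not all of which are printed. cup-5 and the gene lists were chosen with earlier results of these data known. Depth is the total of each sheet column. The p-values compare libraries whose cultures are not described.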

Additional observations from a re-analysis of the deposited data

How the results depend on the processing

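cup-5 passed no comparison with TMM, and 17 or 18 alternatives were run for each. In the ageing of N2 all 18 alternatives had day 12 above day 4, and none passed. Fold changes on the log2 scale turned sign on plain library sizes at day 4 between strains (-0.44), for the interaction (0.63) and for the strain mean (-0.13). With library sizes less the 100 most abundant genes, day 4 gave -0.18 and the interaction 0.37, and with upper quartile factors the ageing of the mutant gave -0.00032. Past the threshold came the ageing of the mutant (1.05) and the age mean (0.74) on plain library sizes, and the age mean less the 100 most abundant genes (0.48). The level per group on plain library sizes was 112.67 CPM in mir-83 day 12 and 54.4 CPM in mir-83 day 4.

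Leaving out each library in turn gave fold changes of 0.16 to 0.69 at day 4, -0.13 to 0.49 at day 12, 0.01 to 0.64 in the ageing of N2, -0.0060 to 0.17 in that of the mutant, -0.55 to 0.0775 for the interaction, 0.14 to 0.45 for the strain mean and 0.05 to 0.36 for the age mean; none passed. Without the replicate block the values for cup-5 were 0.41 at day 4 (adjusted p = 0.423), 0.16 at day 12, 0.33 and 0.08 for ageing in N2 and the mutant and -0.24 for the interaction, and no call on cup-5 changed. With a block for replicate within age they were 0.42 at day 4, 0.18 at day 12, 0.33 and 0.09 for ageing in N2 and the mutant and 0.21 for the age mean, and none passed. With only the libraries compared, day 4 gave 0.40, day 12 0.23 and ageing 0.35 in N2 and 0.13 in the mutant, and none passed after adjustment. Over all genes the fit without the block called 321 at day 4, against 1117 with it, and 136 in the ageing of N2, against 714. At day 4 DESeq2 called 2633 genes, and in the ageing of N2 3256. Of the alternatives for the other genes named with a fold change, 395 kept the direction and the call, 163 kept the direction and lost the call, and none turned sign. These genes were picked by smallest p in the same data, which favours large fold changes, so the kept signs are no independent support. An alternative that changes only the threshold cannot turn a sign. The day 4 counts of the traffic list did shift, from 3 higher and 2 lower to 0 and 14 on plain library sizes.

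Upper quartile factors, library sizes less the 100 most abundant genes and the fit without both mir-83 day 12 libraries were chosen after seeing the data. Not run were an alternative restricted to isoform rows present in both sheets, since no table used here pairs the names, and one with a gene length offset, since the RefSeq rows have no lengths. With TMM and all 8 libraries the 95% intervals of cup-5 between strains, at day 4 and at day 12, span a factor of more than 2 at this depth and number of libraries.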
